A study of Mus musculus with 3 samples.

Results

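The genes described here carry glucose into the cell, break it down to pyruvate and lactate, and burn pyruvate in the citric acid cycle. They were taken by symbol from a named list of glucose uptake, glycolysis and citric acid cycle genes. All 47 genes of the list were found among the 22457 genes counted. They fall into 6 groups by role, namely 4 transporters, 9 genes of the upper and 7 of the lower part of glycolysis, 2 lactate dehydrogenase subunits, 6 genes of the pyruvate dehydrogenase complex and its kinases, and 19 genes of the citric acid cycle. RNA was polyA plus RNA of mouse regulatory T cells, the Foxp3-expressing CD4 lineage that restrains immune responses. The labels describe primary cells of an adult mouse source aged 4 months, tracing back to haematopoietic cells of the bone marrow. No strain, treatment or genotype is named in them. In all 3 libraries were made, technical replicates 1, 2 and 3 of biological replicate 1, so there was 1 group, no comparison between conditions, and no measure of the spread between animals.

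Glycolysis splits glucose into pyruvate in the cytosol, with a small yield of ATP and of NADH. Lactate dehydrogenase turns pyruvate into lactate and restores NAD+, whereas the pyruvate dehydrogenase complex turns it into acetyl-CoA inside the mitochondrion, where the citric acid cycle oxidises it for the respiratory chain. Activated conventional T cells are known for high glycolysis and lactate release, and regulatory T cells for a greater reliance on mitochondrial oxidation, as general background. Transcript levels do not measure the flow through either pathway.

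The total gene count was 3206781, 3228215 and 2872350 in libraries 1, 2 and 3. Levels are CPM (counts scaled to 1000000 per library) or, to compare genes, CPM per kb of coding sequence, given as mean ± SD between libraries (n = 3). A count of 3 corresponded to 0.936, 0.929 and 1.04 CPM, which covers counting error only. The 7 marker genes of regulatory T cells, Foxp3 among them, summed to 2613, 2528 and 2616 CPM, so the defining markers of the labelled cell type were present in each library. A gene was called different between libraries when its 3 counts departed from Poisson expectation (chi-square test, Benjamini-Hochberg adjusted p under 0.05, mean count of at least 10). Such p-values speak of these libraries, not of animals. The test called 2836 of 10282 genes, or 27.6%, and 16 of the 45 members tested, or 35.6%.

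Several glycolytic genes have left near-identical processed copies across the mouse genome, and a read from such a stretch cannot be placed by its sequence alone. The examples that follow show coding bases 301 to 390 of 3 members, 90 bases each, beside a pseudogene copy of the highest identity found. They are from GENCODE M21 transcripts on GRCm38, written 5′ to 3′. Capitals mark the bases in which the copy departs from the member. Gapdh lies at chr6:125161715-125166467 on the minus strand, and its copy Gm7336 at chr7:51746647-51747878 on the plus strand. Pgam1 lies at chr19:41911923-41918660 on the plus strand, and its copy Pgam1-ps2 at chr7:27469771-27470535 on the minus strand. Ldha lies at chr7:46841475-46855627 and its copy Gm5452 at chr13:83832340-83833336, both on the plus strand. The 3 copies shown are annotated as processed pseudogenes, and Gapdh had another of 100% identity, Gm12671.
Gapdh: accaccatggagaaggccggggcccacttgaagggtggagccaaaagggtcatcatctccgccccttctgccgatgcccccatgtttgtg
Gm7336: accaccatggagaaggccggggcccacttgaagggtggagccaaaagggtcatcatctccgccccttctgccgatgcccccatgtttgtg
Pgam1: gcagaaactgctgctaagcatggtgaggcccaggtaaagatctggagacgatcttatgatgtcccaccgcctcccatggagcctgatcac
Pgam1-ps2: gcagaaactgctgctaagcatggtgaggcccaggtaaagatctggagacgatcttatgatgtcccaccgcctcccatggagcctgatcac
Ldha: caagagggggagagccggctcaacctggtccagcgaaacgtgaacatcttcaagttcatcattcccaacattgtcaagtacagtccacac
Gm5452: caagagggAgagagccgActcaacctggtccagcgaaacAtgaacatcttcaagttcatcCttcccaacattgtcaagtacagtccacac

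The Gapdh and Pgam1 stretches differed from their copies at 0 of 90 bases, and the Ldha stretch at 4. Over the whole coding sequence the identity was 100% for Gm7336 and Pgam1-ps2 and 95.9% for Gm5452. To measure this for every member, each 50-base window of its coding sequence was looked up in the transcripts of all other annotated genes, on either strand. In 32 members no window was found elsewhere, in 9 up to 50% of windows were, and in 6 over 50% were. All windows of Gapdh, Pgk1 and Pgam1 were found elsewhere, as were 83.3% of those of Eno1, 57.7% of Suclg2 and 52.9% of Pkm. Over 50% was reached by 12.8% of the members and by 11.5% of all 21325 genes with a coding sequence. The share was 5 of 7 genes in lower glycolysis and 1 of 19 in the citric acid cycle. Gapdh had 149 annotated copies of at least 90% identity over at least 50% of its coding sequence, 143 of them pseudogenes. Ldha had 8 such copies, Eno1 6, Aldoa and Pkm 4 each, Pgam1 3 and Pgk1 2. Introns and unannotated copies were not searched, which can lower these shares. Annotated genes that overlap a gene at its own place were not left out, which can raise them. The shares also depend on the window length.

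**Figure D1:**
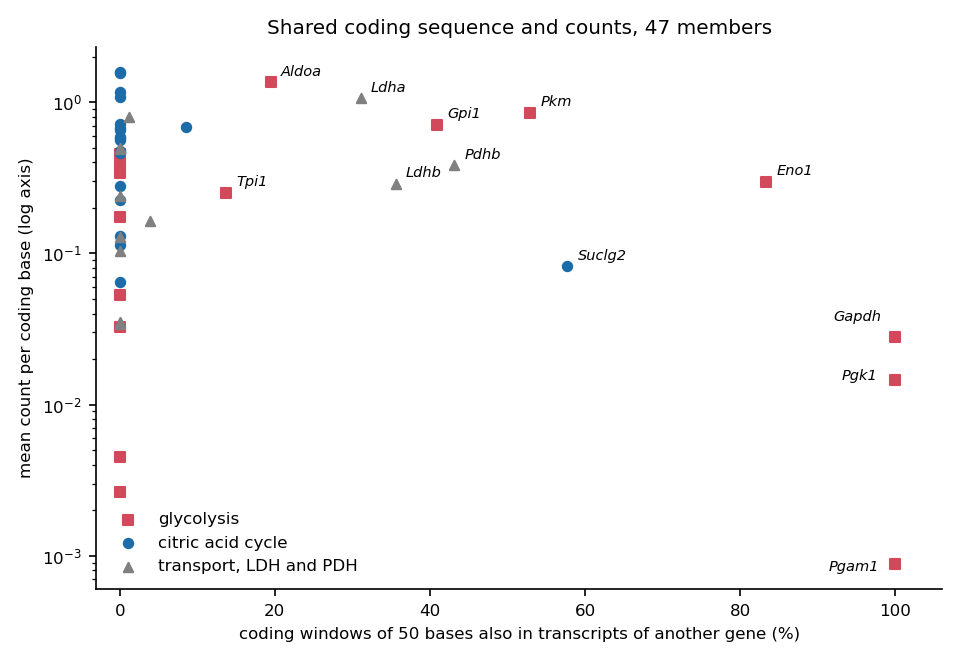
Mean count per coding base on a log axis against the percentage of 50-base coding windows also found in transcripts of another gene, 1 point per member, with squares for glycolysis, circles for the citric acid cycle and triangles for the other groups. Gapdh, Pgk1 and Pgam1 sit at 100% with 0.0279, 0.0146 and 0.000875 counts per base, while Eno1 holds 0.298 at 83.3%.

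The glucose transporter Slc2a3 was the more abundant of the pair measured. It had 831, 770 and 699 counts in libraries 1 to 3 and stood at 159.8 ± 6.97 CPM per kb. Slc2a1, the transporter of basal glucose uptake in many cells, had 268, 237 and 224 counts and stood at 52.9 ± 3.43 CPM per kb. Slc2a3 was 3.03-fold higher than Slc2a1 per kb, between 2.97-fold and 3.11-fold in the libraries. Per kb of merged exons the log2 difference fell from 1.60 to 0.61. The lactate carriers were lower and near each other. Slc16a1 had 50, 65 and 41 counts and stood at 11.3 ± 2.08 CPM per kb. Slc16a3, the carrier known for lactate export from glycolytic cells, had 50, 59 and 35 counts and stood at 10.9 ± 2.17 CPM per kb. None of the 4 transporters was called different between libraries, against 27.6% of all genes tested. Their adjusted p ran from 0.196 to 0.369 (chi-square test, Benjamini-Hochberg).

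Upper glycolysis, from the phosphorylation of glucose to its cleavage into trioses, had a median of 108.7 ± 23.6 CPM per kb over 9 genes. Hexokinase traps glucose in the cell by phosphorylation, and Hk1 carried nearly all of its counts. Hk1 had 1248, 1525 and 1058 counts and stood at 128.6 ± 17.3 CPM per kb (chr10:62268855-62379908, minus strand). Hk2, the form induced in activated lymphocytes and many tumours, had 9, 15 and 13 counts and stood at 1.45 ± 0.374 CPM per kb. Hk3 had 8, 7 and 7 counts, below the mean count that the test required. Hk2 and Hk3 thus stayed at or below 15 counts in every library, while Hk1 was 90.4-fold above Hk2. Gpi1, which converts glucose phosphate to fructose phosphate, had 1355, 1259 and 1030 counts and stood at 228 ± 18.7 CPM per kb. In it 40.9% of coding windows were found elsewhere.

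Phosphofructokinase makes the committed step of glycolysis as a tetramer of liver (Pfkl), platelet (Pfkp) and muscle (Pfkm) subunits. Pfkp had 1422, 1153 and 1013 counts and stood at 146 ± 19.5 CPM per kb. Pfkl had 697, 1039 and 655 counts and stood at 109.3 ± 24.6 CPM per kb. Pfkm had 112, 64 and 68 counts and stood at 10.5 ± 3.14 CPM per kb. The muscle subunit was thus the lowest in each library. Pfkp was above Pfkl in libraries 1 and 3, and near equal to it in library 2. Aldolase cleaves fructose bisphosphate into trioses, and Aldoa had the highest level per kb of whole coding sequence among the glycolysis genes other than Gapdh, Pgk1 and Pgam1. Counts per window found once, which rise as windows are left out, put Pkm (2.07), Aldoa (2.02) and Eno1 (2.00) close together. Aldoa had 1757, 1738 and 1588 counts and stood at 436 ± 5.87 CPM per kb. Aldoc had 68, 44 and 61 counts and stood at 17.2 ± 4.02 CPM per kb. Hk1, Gpi1, Pfkl, Pfkm and Pfkp, 5 of the 8 genes tested, were called different between libraries, against 27.6% of all genes tested.

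Lower glycolysis, from triose phosphates to pyruvate, had a median of 56.5 ± 7.66 CPM per kb over 7 genes. Without Gapdh, Pgk1 and Pgam1 the median of the other 4 was 88.7 ± 3.36. Tpi1, the triose phosphate isomerase, had 228, 272 and 180 counts and stood at 81.0 ± 12.1 CPM per kb. Gapdh, the glyceraldehyde phosphate dehydrogenase, had 31, 36 and 23 counts and stood at 8.92 ± 1.46 CPM per kb. Pgk1, the phosphoglycerate kinase, had 19, 22 and 14 counts and stood at 4.66 ± 0.771 CPM per kb. Pgam1, the phosphoglycerate mutase, had 0, 1 and 1 counts, each below the 3-count floor. The last 3 are the members whose coding windows were all found elsewhere, as the printed stretches of Gapdh and Pgam1 show. Reads lost to copies and low expression cannot be told apart for them, and their levels cannot be ranked with those of other genes.

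Few of the copies are listed in the count table, and those listed held few counts. Of the 149 Gapdh matches 4 are listed, Gm3839, Gm47854, Vmn2r60 and Peli2, with 0 to 4 counts in any library. Peli2 and Vmn2r60 are other genes with a transcript that contains the match, so their counts are those of the whole gene. Of the 2 Pgk1 copies 1 is listed, Pgk1-rs7, with 0 in each library. The Eno1 copy Eno1b had 5, 2 and 7 counts, and the Gpi1 copy Gm1840 had 8, 6 and 5. Eno1, the enolase of most tissues, had 429, 411 and 411 counts and stood at 96.4 ± 5.68 CPM per kb. Eno3, the muscle enolase, had 204, 237 and 240 counts and stood at 56.5 ± 7.66 CPM per kb. Markers of skeletal muscle were nearly absent, at a sum of 8.11, 4.96 and 7.66 CPM over 5 genes. Of these Tnnt3 held 7.17, 3.72 and 7.31 CPM, the other 4 had at most 3 counts in any library, and Myh4 had 0. Pkm, which makes pyruvate, had 1590, 1537 and 1380 counts and stood at 275 ± 5.88 CPM per kb.

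Where counts are divided by only those coding windows that were found once, members with copies come out higher by construction. The count stays whole while the divisor shrinks. Eno1 had 2.00 counts per such window, against 0.298 per base of its whole coding sequence. Pkm had 2.07 against 0.853, and Aldoa 2.02 against 1.35. These 3 values lie near the highest count per coding base of any gene with at least 1000 coding bases, which was 2.12. The 2.12 has whole coding sequence as its divisor, so the measures are unlike. How many counts of these 3 genes came from the remaining windows or from untranslated exons was not tested. Counts per window found once are therefore not corrected levels. None of the 6 genes of lower glycolysis that were tested was called different between libraries, against 27.6% of all genes tested. Tpi1 and Eno3 came nearest, at adjusted p = 0.0549 and 0.0579 (chi-square test, Benjamini-Hochberg).

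Lactate dehydrogenase was present through both of its subunits. Ldha, the subunit that favours lactate formation, had 1158, 1187 and 1130 counts and stood at 345 ± 15.8 CPM per kb. Ldhb, the subunit that favours lactate use, had 313, 298 and 260 counts and stood at 93.3 ± 3.68 CPM per kb. Ldha was above Ldhb in each library, by 3.42-fold, 3.69-fold and 4.02-fold. In Ldha 31.05% and in Ldhb 35.6% of coding windows were found elsewhere. The ranges of the pair did not overlap, and neither gene was called different between libraries.

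The pyruvate dehydrogenase complex joins glycolysis to the citric acid cycle, and its kinases switch it off. Its 4 members and 2 kinases had a median of 100.1 ± 13.05 CPM per kb. Pdha1, the alpha subunit of the dehydrogenase, had 1028, 877 and 897 counts and stood at 258 ± 22.4 CPM per kb. Pdhb, its beta subunit, had 474, 383 and 382 counts and stood at 123.6 ± 13.5 CPM per kb, with 43.1% of its windows found elsewhere. Both subunits were highest in library 1. Dld, the dihydrolipoamide dehydrogenase that other complexes share, had 792, 739 and 700 counts and stood at 157 ± 6.30 CPM per kb. Dlat, the acetyltransferase core of the complex, had 196, 172 and 232 counts and stood at 33.8 ± 7.35 CPM per kb. It was the lowest of the 4 enzyme members in each library. Pdk1, a kinase known as a target of the oxygen-sensing factor Hif1a, had 385, 290 and 257 counts and stood at 76.6 ± 13.5 CPM per kb. Pdk3 had 160, 160 and 161 counts and stood at 41.6 ± 2.94 CPM per kb. Pdha1, Pdhb, Dlat and Pdk1 were called different between libraries, 4 of 6, against 27.6% of all genes tested. A share over so few genes is coarse.

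The citric acid cycle had a median of 188.6 ± 7.44 CPM per kb over 19 genes, above the transport, glycolysis and pyruvate dehydrogenase groups in each library. The 2 lactate dehydrogenase subunits had a higher median than the cycle in each library, at 219.3 ± 6.45 CPM per kb. All 19 cycle genes exceeded 1 CPM in every library. Mdh2 and Mdh1, the mitochondrial and cytosolic malate dehydrogenases, had the highest CPM per kb of whole coding sequence among the members, Gapdh, Pgk1 and Pgam1 left aside. Mdh2 had 1669, 1686 and 1648 counts and stood at 514.6 ± 28.9 CPM per kb (chr5:135778480-135790398, plus strand). Mdh1 had 1544, 1617 and 1552 counts and stood at 506.6 ± 29.9 CPM per kb (chr11:21556787-21572367, minus strand). The count of both changed little with library size, and at 1.59 and 1.57 counts per coding base they were the members nearest to the highest density of any gene. Per window found once, Pkm (2.07), Aldoa (2.02), Eno1 (2.00) and Ldha (1.77) lay above Mdh2 (1.73) and Mdh1 (1.65). That divisor raises most the genes with windows elsewhere, so it sets no order between them. How duplicate reads were handled is not given, and whether counts near the highest density are compressed was not tested, so levels, ranks and library differences of the most abundant members carry this limit.

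Succinate dehydrogenase, which is also complex II of the respiratory chain, has 4 subunits. Sdhb, the iron-sulphur subunit, had 930, 1108 and 935 counts and stood at 378 ± 32.0 CPM per kb. Sdha, the flavoprotein subunit, had 2130, 2357 and 2016 counts and stood at 351 ± 16.6 CPM per kb. The membrane anchors Sdhd and Sdhc stood lower, at 215.6 ± 10.7 and 149 ± 5.84 CPM per kb. The catalytic subunits were thus above the anchors in each library. Cs, the citrate synthase that opens the cycle, had 991, 962 and 894 counts and stood at 219.9 ± 5.10 CPM per kb. Fh1, the fumarase, stood at 89.6 ± 6.16 CPM per kb.

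Isocitrate dehydrogenase exists as an NAD+ enzyme of the cycle (Idh3a, Idh3b, Idh3g) and as NADP+ enzymes in the cytosol (Idh1) and the mitochondrion (Idh2). The 3 subunits of the NAD+ enzyme lay close together. Idh3a stood at 186.8 ± 14.6, Idh3b at 232 ± 3.66 and Idh3g at 210.7 ± 3.05 CPM per kb, and none was called different between libraries. Idh2 had 142, 210 and 150 counts and stood at 36.8 ± 7.15 CPM per kb. Idh1 had 77, 61 and 102 counts and stood at 21.05 ± 6.85 CPM per kb. Every NAD+ subunit was above both NADP+ enzymes in each library. Aco1, the cytosolic aconitase that also acts as an iron sensor, had 371, 357 and 318 counts and stood at 42.1 ± 1.09 CPM per kb.

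The oxoglutarate dehydrogenase complex was read through Ogdh and Dlst, its dehydrogenase and its succinyltransferase core. Ogdh had 1940, 1835 and 1591 counts and stood at 179.6 ± 8.21 CPM per kb. Dlst had 317, 324 and 280 counts and stood at 72.6 ± 1.06 CPM per kb. The core was thus the lower component here, as Dlat was in the pyruvate complex. Succinyl-CoA ligase pairs the alpha subunit Suclg1 with an ATP-forming (Sucla2) or a GTP-forming (Suclg2) beta subunit. Suclg1 stood at 188.6 ± 7.44 and Sucla2 at 154 ± 11.6 CPM per kb. Suclg2 had 118, 75 and 126 counts and stood at 26.7 ± 8.07 CPM per kb, with 57.7% of its windows found elsewhere.

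**Figure D2:**
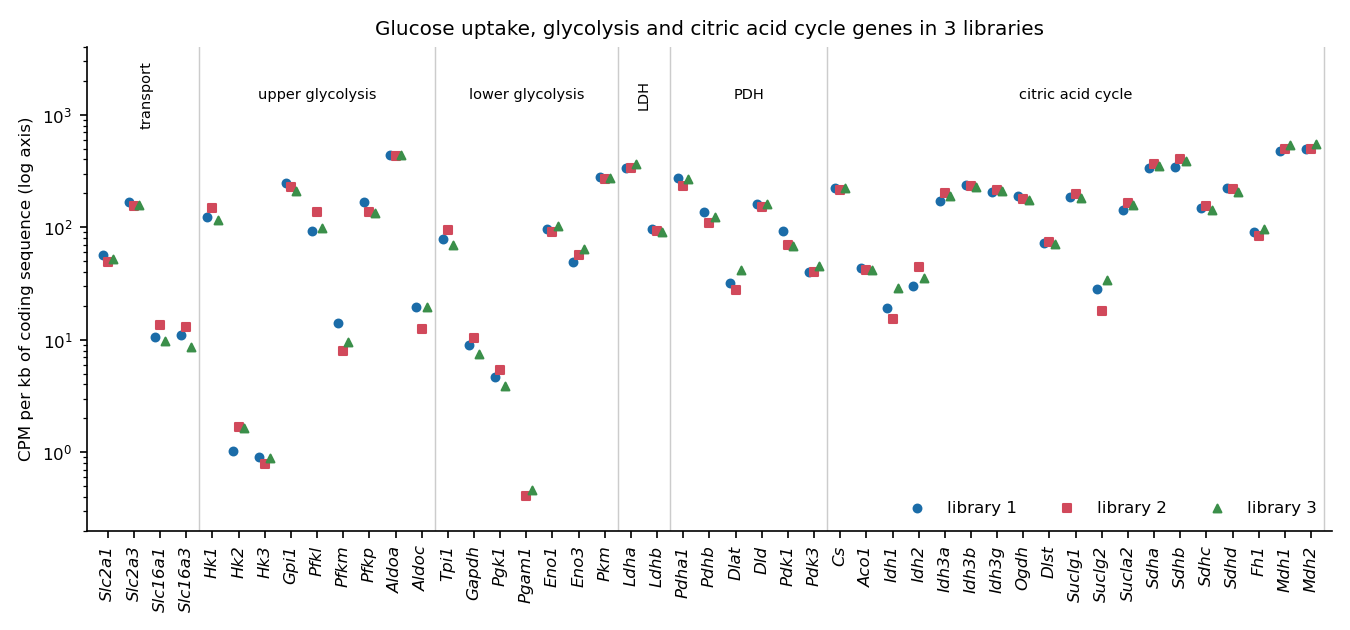
CPM per kb of coding sequence on a log axis for each of the 47 members, grouped by role, 1 point per library, with the Pgam1 value of library 1 at 0 and not drawn. The points of most members lie close together, Mdh1, Mdh2 and Aldoa lead, and Hk2, Hk3, Pgk1 and Pgam1 lie lowest.

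Set side by side, the groups differed more than the libraries did. The median of the 19 citric acid cycle genes was 186.2, 197 and 182.7 CPM per kb in libraries 1 to 3, and that of the 16 glycolysis genes 64.1, 73.8 and 67.0. The difference was 1.47 ± 0.06 on the log2 scale, higher for the cycle in each library. It depended on the genes with copies. Without members with over 50% of windows elsewhere, the medians were 190.7 ± 6.92 over 18 and 81.0 ± 12.1 over 11 genes, a log2 difference of 1.24. Per kb of windows found once the difference was 0.91. Gapdh, Pgk1 and Pgam1 have no such window and drop out of that value, so its gene set differs as well as its divisor. The lists also differ in make-up. Glycolysis includes lower isozymes of steps that another member covers, such as Hk2 (1.45), Hk3 (0.856), Pfkm (10.5) and Aldoc (17.2 CPM per kb). The cycle list holds low forms too, Idh1 (21.05), Idh2 (36.8) and Suclg2 (26.7). How far list make-up sets the difference was not tested, so it does not rank 1 pathway above the other step by step. The median of all members was 103.3 ± 6.42 CPM per kb and that of all genes with a coding length 1.33. Of the members 46 reached 1 CPM in every library, against 10866 of all 22457 genes. Members held 0.927%, 0.932% and 0.927% of the total count.

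A set of 15 pairs of isozymes or subunits was compared within each library, where library size cancels. In 12 of them the same gene was higher in all 3 libraries. The widest gaps were between Hk1 and Hk2 (log2 6.50 ± 0.39), Aldoa and Aldoc (4.70 ± 0.35) and Pfkl and Pfkm (3.40 ± 0.69). Sucla2 exceeded Suclg2 by 2.58 ± 0.53, with values of 2.32, 3.19 and 2.23, the largest in library 2. Per window found once this gap was 1.34. Idh2 exceeded Idh1 by 0.84 ± 0.64, with 0.64, 1.55 and 0.32, again the largest in library 2. Ldha exceeded Ldhb by 1.89 ± 0.12, and Pdha1 exceeded Pdhb by 1.06 ± 0.06. Per window found once Pdha1 exceeded Pdhb by 0.26.

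No order could be given for 4 pairs. Pfkp against Pfkl stood at 0.86, -0.02 and 0.46 in libraries 1 to 3 (mean 0.43 ± 0.44). Pfkp thus led in libraries 1 and 3, and the pair was near equal in library 2. Mdh2 against Mdh1 was 0.02 ± 0.03, and Slc16a1 against Slc16a3 was 0.05 ± 0.12. Hk2 against Hk3 was 0.73 ± 0.49, with a counting interval (95%, pooled counts) of -0.04 to 1.59. Another 3 orders turned when counts were divided by merged exon length in place of coding length. Eno1 against Eno3 went from 0.78 to -0.75, Pdk1 against Pdk3 from 0.87 to -0.67, and Sdhb against Sdha from 0.10 to -0.25. Per window found once these 3 stood at 3.46, 0.87 and 0.15, but that divisor could hardly turn them. Pdk1, Pdk3, Sdhb, Sdha and Eno3 had no window elsewhere, so theirs stayed near the coding length. Only that of Eno1 shrank, which raises Eno1 by construction. Exon length also moved pairs that kept their order, Ldha against Ldhb to 0.92 and Pfkl against Pfkm to 2.31.

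**Figure D3:**
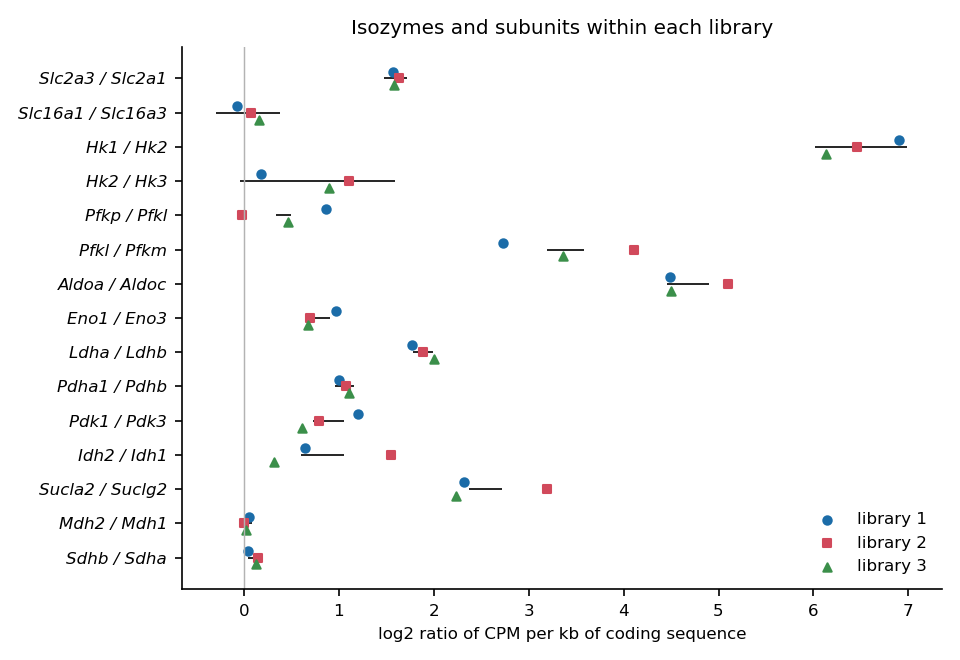
The log2 ratio of CPM per kb of coding sequence within each library for 15 gene pairs, 1 point per library, with a black line for the 95% counting interval of pooled counts and a grey line at 0. The points of Pfkp against Pfkl lie at 0.86, -0.02 and 0.46, while those of Hk1 against Hk2 all lie above 6.

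Differences between the libraries were mostly small. After scaling, the highest library exceeded the lowest by a median of 1.16-fold among the members tested and 1.25-fold among all genes tested. Of the 16 called members, 4 differed by 1.5-fold or more and none by 2-fold. Over all genes tested, 9.98% were called with 1.5-fold or more and 4.03% with 2-fold or more. Suclg2 differed by 1.93-fold, highest in library 3 (chi-square test, adjusted p = 2.97e-04). Idh1 differed by 1.92-fold and Dlat by 1.55-fold, both also highest in library 3 (adjusted p = 0.00127 and 4.64e-04, chi-square test). Pfkm differed by 1.81-fold and was highest in library 1 (adjusted p = 0.00257, chi-square test). Suclg2, Idh1, Dlat and Pfkm were all lowest in library 2. The smallest adjusted p belonged to abundant genes, Pfkl at 3.46e-14 with 1.44-fold, Pfkp at 1.53e-09 with 1.27-fold and Hk1 at 3.46e-07 with 1.25-fold.

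The called members did not share a direction. In 7 the scaled count was highest in library 1 (Gpi1, Pfkm, Pfkp, Pdha1, Pdhb, Pdk1, Ogdh), against 11.1% of all genes tested called in that direction. In 4 it was highest in library 2 (Hk1, Pfkl, Idh2, Sdhb), against 8.71% of all genes. In 5 it was highest in library 3 (Dlat, Idh1, Suclg2, Mdh1, Mdh2), against 7.75% of all genes. Of the 7 in citric acid cycle genes, 4 were highest in library 3, and of the 5 in glycolysis genes, 3 were highest in library 1 and none in library 3. Coding GC content had a median of 52.4% in the set that peaked in library 1, 55.3% for library 2 and 50.4% for library 3, beside 53.1% in the 29 genes not called. Across the 45 members, GC content and the log2 ratio of library 2 to library 1 correlated at r = 0.15, and GC content and the ratio of library 3 to library 1 at r = -0.19. Over all genes tested the values were 0.06 and -0.07, and all 4 are descriptions over genes of the same libraries.

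**Figure D4:**
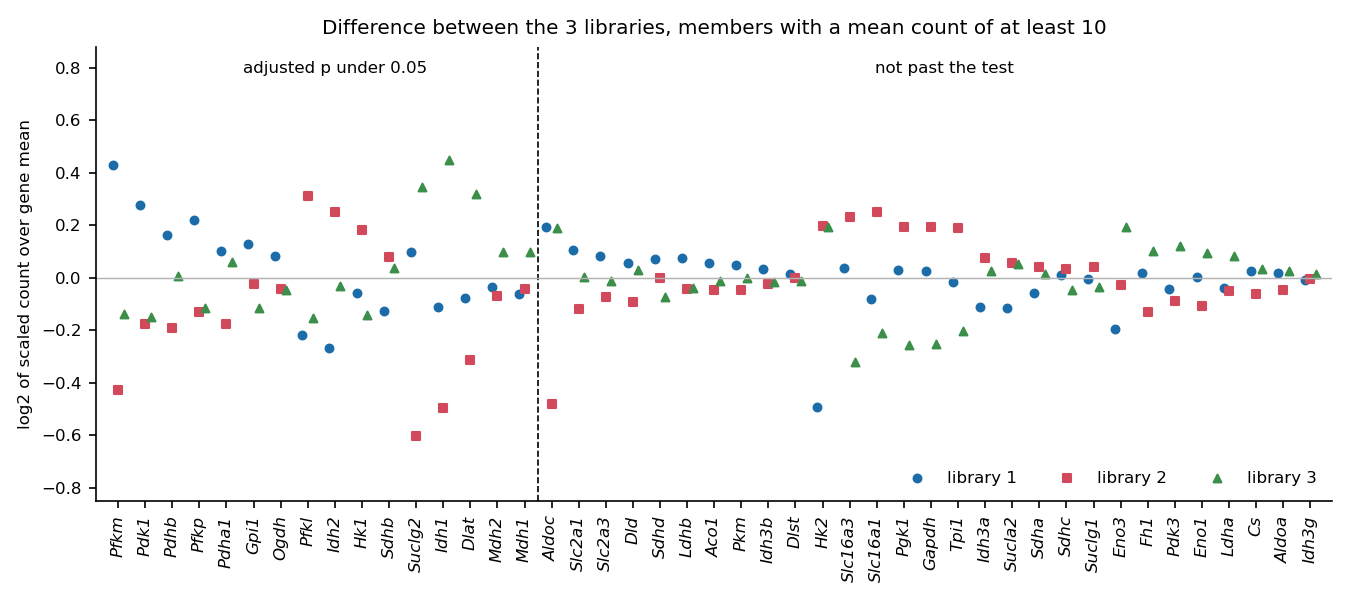
The log2 of each library's scaled count over the gene's mean for the 45 members tested, 1 point per library, with the 16 genes past the test to the left of the dashed line. Suclg2, Idh1 and Dlat show library 2 as the lowest point, and Pfkm shows library 1 as the highest.

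The calls depended on the spread allowed and on single libraries. With a negative binomial form that allows the libraries an extra coefficient of variation of 12.5%, 0 of 45 members were called, against 0.914% of all genes. That 12.5% was estimated from these same 3 libraries. A gene with their typical spread could therefore not pass, and the 0 does not show that the libraries are alike. At an unadjusted p under 0.05 the Poisson test marked 20 of 45 members and 38.6% of all genes. With library 1, 2 or 3 left out, 9, 6 and 10 of 45 members were called, against 16.5%, 9.38% and 19.5% of all genes tested. Each of the 16 lost its call without at least 1 library. Leaving out the outlying library of 3 leaves the nearest values and fewer counts, so some losses follow from the design. Hk1, Pfkl, Pdha1 and Suclg2 lost it only without library 2 (chi-square test, adjusted p = 0.426, 0.678, 0.758 and 0.445). Pfkp and Pdk1 lost it only without library 1 (0.915 and 0.920), and Dlat and Mdh1 only without library 3 (0.312 and 0.741). Pfkm, Pdhb, Idh2 and Sdhb lost it without either library 1 or 2, Idh1 and Mdh2 without either 2 or 3, Gpi1 without either 1 or 3, and Ogdh without any.

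Markers of other blood cells moved between the same libraries. The 9 neutrophil markers summed to 1.87, 81.2 and 11.1 CPM in libraries 1 to 3, and Ngp had 1, 96 and 3 counts. The 9 erythroid markers summed to 8.73, 221 and 185 CPM, with Hbb-bs at 0 counts in library 1. The 6 B cell markers summed to 235, 297 and 390 CPM. Of the 5 tested 4 were called, against 27.6% of all genes tested, and all 4 were highest in library 3. The 7 monocyte and macrophage markers summed to 137, 137 and 180 CPM, of which Ccr2 alone held 96.4, 109.3 and 121.2. Csf1r had 50, 19 and 46 counts and Cd68 37, 23 and 46. Both were called and lowest in library 2, whereas Lyz2, with 20, 29 and 38 counts, was lowest in library 1 and not called. Library 1 thus held the fewest neutrophil, erythroid and B cell transcripts, and library 3 the most B cell transcripts. Their part in the differences of the members was not tested, and in bulk RNA fewer cells of a type and less RNA per cell cannot be told apart.

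Of 90 further genes around these pathways in 6 lists, 67 were tested and 20, or 29.9%, were called. Library 1 held the peak of 12 of these, library 2 of 3 and library 3 of 5, beside 1143, 896 and 797 of all 2836 called genes. The 29.9% was near the 27.6% of all genes. Among 20 other isozymes of the same steps, Pdhx and Pdk2 stood at 38.0 and 17.2 CPM per kb. Pdhx anchors Dld to the pyruvate dehydrogenase core. Ldhd, the lactate dehydrogenase of D-lactate, had 26, 25 and 7 counts (3.34-fold, adjusted p = 0.0348), and Pdp2, a phosphatase that reactivates pyruvate dehydrogenase, had 51, 25 and 35 (2.11-fold, p = 0.0328, chi-square test as above). The muscle and testis forms Slc2a4 and Ldhc had 0 counts in all libraries, which allows up to 3 counts in each.

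Among 14 genes of side reactions, Pck2, Bpgm and Gpd1l were the highest and the only 3 of 9 tested that were called. Bpgm, which makes bisphosphoglycerate and is best known from red cells, had 175, 83 and 136 counts (2.18-fold, adjusted p = 3.75e-07, chi-square test). It was highest in library 1 and lowest in library 2. How it relates to the erythroid markers was not tested. In pyruvate, citrate and malate transport, Slc25a11, Mpc2 and Acly led at 174.5, 164 and 128 CPM per kb. Acly, which splits exported citrate, was called, as were Me2 and Slc25a12, 3 of 9, each highest in library 1. The pentose phosphate pathway stayed close to the members in level. Its Taldo1, Tkt and Pgls stood at 264, 263 and 105.4 CPM per kb, and 1 of 8 genes was called, the entry enzyme G6pdx. For glutamine entry, Slc1a5, Slc38a1 and Slc38a2 led at 230.8, 93.4 and 75.0 CPM per kb, and Got1 and Got2 were called, 2 of 7. Me2, Slc25a12, G6pdx, Got1 and Got2 are named because they were called, after their values were seen. The counts called in these lists stand beside 27.6% of all genes tested, and each list holds few genes.

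Among 29 regulators by oxygen, nutrients and growth, Txnip, Myc and Rheb were the highest, at 338, 217.8 and 217 CPM per kb. Txnip restrains glucose uptake, Myc drives genes of glycolysis, and Rheb activates the kinase mTOR. Of the 26 tested 9, or 34.6%, were called, Txnip and Rheb among them, against 27.6% of all genes tested. Rptor, a defining part of mTOR complex 1, had 213, 127 and 117 counts (1.73-fold, adjusted p = 3.08e-06), and Esrra, a nuclear receptor that drives mitochondrial genes, had 31, 8 and 12 (4.00-fold, p = 0.00182, chi-square test). Both were highest in library 1.

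Promoters were read from RefSeq sequences of GRCm38.p6, from 250 bases before to 50 after each start, and 44 of the 47 members had an entry. The letters ACGTG, the core of the element bound by the hypoxia-inducible factor, occurred on either strand in 20 of 44 member genes, or 45.5%. Over the 8112 genes tested between libraries that had an entry the share was 30.0%. Counted by promoter in place of gene, it was 43.5% of 62 member promoters and 19.6% of all 32851 promoters. The letters CACGTG, which contain ACGTG and are the element of Myc and related factors, occurred in 4 of 44 member genes, or 9.09%, against 12.2% of the tested genes, and in 9.68% of member promoters against 7.15% of all promoters. A gene counted when any of its promoters held the letters. A match describes the sequence only, and binding was not measured.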

How the data were processed

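Per the file descriptions, the authors deposited whole-number counts per gene on mm10 with the GENCODE M4 annotation, 1 table per library. The steps before them (aligner, counter, strand setting, duplicate removal) are not given in the sources, so overlapping and antisense genes cannot be separated. Symbols, positions and coding sequences came from GENCODE M21 on the same assembly: 22195 identifiers matched and 262 did not. The members and all lists were chosen with earlier results of these data known. Any member could be named, as could the 3 highest genes of each further list and its called genes with a ratio of at least 1.5. Some genes of the further lists are not reported here.

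TMM factors of 0.990, 1.02 and 0.993 (edgeR 4.0.16, R 4.3.3) multiplied the totals to give library sizes. Each gene's 3 counts were tested with Pearson's chi-square against Poisson expectation (2 degrees of freedom), with Benjamini-Hochberg adjustment over 10282 genes. On simulated Poisson counts for these 10282 genes, 4 of 10082 unchanged genes were called, and of 50 genes each, 24% at 1.25-fold, 54% at 1.5-fold, 90% at 2-fold and 92% at 4-fold. CPM used plain totals, and coding lengths were merged over transcripts. A planned search for copies in the genome was replaced by a search in 141767 GENCODE transcripts, with blastn 2.17.0 for copies of at least 90% identity. Alternatives were other filters, plain totals, size factors of DESeq2 1.42.0, bins of genes by GC content or by counts per coding base, a negative binomial form, other lengths, other windows, and leaving out each library. The software was scipy 1.17.1, numpy 2.4.6 and pandas 2.3.3 under Python 3.11.15, with matplotlib 3.10.9 for figures.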

Additional observations from a re-analysis of the deposited data

How the results depend on the processing

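The number of members called different between libraries was 16 and stayed between 15 and 20 with other library sizes, filters and bins of genes. It was 0 with the negative binomial form, whose spread came from these same libraries (94 of all genes), and 6 to 10 with 1 library left out. Of the 16 called members 12 kept their call in each setting other than these, and Mdh1, Mdh2, Ogdh and Pdhb lost it in at least 1. With library sizes set in bins of counts per coding base, Mdh1 and Mdh2 had adjusted p = 0.340 and 0.257 (chi-square test, Benjamini-Hochberg). The median level of glycolysis genes, 68.3 CPM per kb of coding sequence, became 25.0 per kb of merged exons and 112 per kb of windows found once. Gapdh, Pgk1 and Pgam1 have no window found once, so the 112 and the difference from the cycle in that setting leave them out. The median level of pyruvate dehydrogenase genes, 100.1, became 116 CPM with no length division, 27.4 per kb of exons and 121 per kb of windows found once. That of the citric acid cycle, 188.6, became 216, 51.5 and 208 in the same settings. The log2 difference between cycle and glycolysis, 1.47, became 1.56, 1.04 and 0.91, and 1.24 without members with over 50% of windows elsewhere, and was 1.43 to 1.49 with 1 library left out. The ratio of Eno1 to Eno3 turned to -0.75 and that of Pdk1 to Pdk3 to -0.67 per kb of exons, and that of Sdhb to Sdha to -0.25 there and -1.13 with no length division. The divisor itself differs in these settings, and exons include untranslated parts. Members with over 50% of windows elsewhere were 6 with 50 bases, 9 with 36 and 4 with 100. Dividing by windows found once, leaving out members with copies and the search in transcripts were chosen after seeing the data. The planned search of the genome was not run, since no genome was used here. No paired analysis was possible because there was 1 group. Genes with few counts, such as Hk2 and Hk3, could show only large differences at this depth.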
